A study of Canis lupus familiaris with 29 samples.

Results

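Lymph nodes of placebo-treated dogs with large B-cell lymphoma were compared between Day 0 and Day 4 by RNA sequencing. The comparison uses the 10 libraries of the 5 placebo dogs that had both days (MN05, MN08, MN09, PENN04 and PENN05), out of 29 libraries from 15 dogs in the series, and these were chosen by the treatment, the dog and the day in the sample labels. A further placebo dog, PD04, had a Day 0 library only and was left out of the paired test. All were client-owned patients whose large B-cell lymphoma had just been diagnosed, and at both biopsies none had yet been given doxorubicin. The paper admitted the diffuse form and marginal zone lymphoma in transition, and the form in each of these dogs was not established here. The placebo capsule held the compounding material without valspodar and was given by mouth on the schedule of the 9 dogs that received valspodar, which blocks ABCB1, a pump that exports drugs from cells. The labels give an age of 5.3 to 10.4 years for 4 of the placebo dogs and none for PENN04. The Day 0 tissue was an incisional wedge biopsy and the Day 4 tissue a tru-cut needle biopsy, in both arms. Elapsed time, the kind of biopsy and the placebo capsule therefore differed together between the days and cannot be told apart.

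A node filled by this lymphoma consists mostly of malignant B cells, with macrophages, stromal cells and a varying number of neutrophils from blood or inflamed tissue between them. Neutrophils carry the receptor for granulocyte colony-stimulating factor and granules of matrix-degrading enzymes, whereas resident macrophages are the main source of complement C1q. Immediate early genes such as those of the EGR and NR4A families are transcribed within minutes of a stimulus, which includes the handling of tissue, and their transcripts are short-lived. In whole tissue, fewer cells of a type and less RNA per cell cannot be told apart.

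Expression was measured as FPKM, a fragment count divided by exon length and by the mapped fragments of the library, and changes are given as Day 4 minus Day 0 on the scale of log2(FPKM + 1). On this scale a change of 1 is close to a doubling for a well expressed gene and less than the true ratio for a low one. Each dog gave 1 library per day, so a difference seen within 1 dog has no replicate check. The 10 libraries had 10808 to 11564 genes at 1 FPKM or more, and their relative depth, estimated from genes with low values because FPKM keeps no read total, lay between 0.849 and 1.38. The Day 4 library of PENN04 stood apart: 40.6% of its summed FPKM lay in its 10 most abundant genes, against 13.4% to 28.9% in the other placebo libraries of paired dogs. The labelled tissue could not be checked against its defining markers, because the table names genes by Ensembl identifier, symbols were paired with only 23 of the 28 identifiers on the lists below, and 0 of 15 B-cell markers were among them. All 28 are genes that the study had listed, so the matched members of each marker or pathway group below had been selected beforehand. CSF3R, SERPINA1, MMP9, ITGAM, CTSK, TROAP and EEF1A1 had been selected on these placebo libraries and the other genes with a symbol on the valspodar libraries. Of the loci without a symbol, ENSCAFG00000028460 and ENSCAFG00000024514 had been selected on the placebo libraries and ENSCAFG00000030746 on the valspodar libraries. ENSCAFG00000029302 and ENSCAFG00000018586 had been selected on both.

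No gene passed the test between the days. In the paired fit with limma, 0 of 11677 genes had an adjusted p under 0.05, and the smallest adjusted p was 0.681. At an unadjusted p under 0.05 there were 805 genes (6.89%), of which 488 were higher (4.18%) and 317 lower (2.71%) at Day 4. Day 4 exceeded Day 0 in 5 of 5 dogs for 584 genes (5% of those tested) and was below it in 5 of 5 dogs for 421 (3.61%). The 5 values of Day 4 lay above all 5 of Day 0 for 16 genes (0.137%) and below them for 22 (0.188%). The median fitted change of all genes was 0. With 5 dogs, the smallest p that an exact two-sided sign-flip test over dogs can give is 0.0625, so no single value can pass 0.05 in that test.

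The dogs differed in how much their nodes changed and in which direction. In PENN04, 902 genes were higher by 1 or more (7.72%) and 116 were lower by as much (0.993%), the largest count of changes past 1 among the 14 paired dogs. PENN05 went mostly the other way, with 249 genes higher (2.13%) and 396 lower (3.39%). MN05 had 256 higher (2.19%) and 48 lower (0.411%), MN09 had 162 (1.39%) and 119 (1.02%), and MN08 had 89 (0.762%) and 149 (1.28%). The SD of the log2 changes was 0.83 in PENN04, 0.68 in PENN05, 0.56 in MN08, 0.54 in MN05 and 0.50 in MN09. The 9 valspodar dogs spanned 109 to 770 genes past 1 in either direction and SDs of 0.40 to 1.04, so in SD the placebo dogs fell within the range of the treated dogs.

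**Figure D1:**
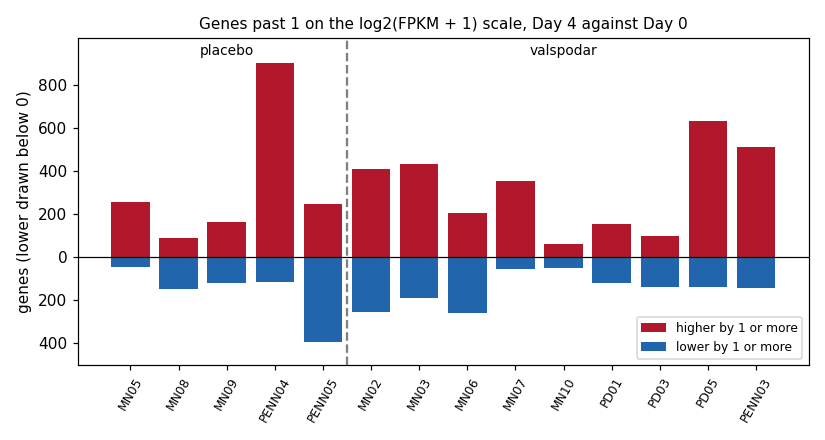
Number of genes whose log2(FPKM + 1) was higher (red, above 0) or lower (blue, drawn below 0) by 1 or more at Day 4 in each of the 14 paired dogs, out of 11677 genes. PENN04 has 902 higher genes, the tallest bar, and PENN05 has 396 lower genes, the deepest.

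Few of these genes were shared between dogs. Genes higher by 1 or more numbered 1026 in exactly 1 placebo dog, 212 in 2, 61 in 3, 5 in 4 and 1 in all 5. Those lower by 1 or more numbered 672 in 1 dog, 70 in 2, 4 in 3, 1 in 4 and 0 in 5. The closest pair was MN05 and PENN04, which shared 134 higher genes, 52.3% of those of MN05 and 14.9% of those of PENN04. MN09 and PENN04 shared 79, which is 48.8% and 8.76% of their lists. Over the 11677 genes, the changes of MN05 and PENN04 had a Pearson correlation of 0.31 and a Spearman correlation of 0.46, as a description across genes that share a library and are not replicates. The lowest pair was MN09 and PENN05, at -0.17 and -0.37, and the other 8 pairs had Pearson values from -0.07 to 0.15. A set of 31 genes (0.265%) was higher by 1 or more in each of PENN04, MN05 and MN09, and another of 36 (0.308%) was higher by 1 or more in PENN05 and lower by 1 or more in MN09.

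The 4 neutrophil genes that could be matched were higher at Day 4 in the same 4 dogs and lower in PENN05, and by far the most in PENN04. Their summed level went from 5.60 to 332 FPKM in PENN04, from 5.69 to 30.5 in MN05 and from 5.10 to 23.8 in MN09. MN08 began high, at 70.3 FPKM, and reached 83.6, while PENN05 went from 11.2 to 5 FPKM. At Day 0 the summed level was thus similar in MN05, MN09 and PENN04 and more than 10 FPKM in the remaining pair. These 4 genes are what could be matched of 18 neutrophil markers, and 0 of 4 passed the test in either direction (adjusted p under 0.05; 0 of 11677 genes did, or 0%). None had an unadjusted p under 0.05, which 6.89% of all genes did. In the joint limma fit of all 14 paired dogs, 1045 of 11677 genes did. There CSF3R, SERPINA1 and ITGAM had unadjusted p of 0.0116, 0.0243 and 0.0242, each with an adjusted p of 0.512. The median change of the 4 genes was 1.58 where that of all genes was 0. All 4 had been selected on these same libraries, so nothing is read from that contrast or from these p.

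CSF3R, the receptor for granulocyte colony-stimulating factor (canFam3 chromosome 15, 5818857 to 5833536), had Day 0 levels of 1.16 FPKM in MN05, 23.4 in MN08, 1.59 in MN09, 1.16 in PENN04 and 1.57 in PENN05. At Day 4 the levels were 7.84, 27.5, 7.39, 72.8 and 1.09 FPKM in the same order. The increase was 62.6-fold in PENN04, 6.78-fold in MN05 and 4.64-fold in MN09, whereas MN08 differed by 1.18-fold, and the days overlapped. The fitted log2 change was 1.75 (SE 0.80, adjusted p = 0.681), and 0.91 (SE 0.46) when PENN04 was left out.

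SERPINA1, the inhibitor of neutrophil elastase (chromosome 8, 63387094 to 63398494), was likewise increased most in PENN04 and was lower in PENN05. It went from 2.71 to 134 FPKM in PENN04, from 3.85 to 18.7 in MN05, from 2.24 to 12.9 in MN09, from 37.3 to 44.8 in MN08 and from 6.13 to 2.59 in PENN05. The fitted log2 change was 1.72 (SE 0.88, adjusted p = 0.681), and 0.85 without PENN04.

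MMP9, a gelatinase stored in neutrophil granules (chromosome 24, 33273918 to 33281411), had the largest increase of the 28 listed genes in any 1 placebo dog on the log2 scale. It was 0.874 FPKM in PENN04 at Day 0 and 111 FPKM at Day 4, a 127-fold difference. It went from 0.147 to 2.2 FPKM in MN05, from 0.837 to 2.37 in MN09, from 6.34 to 7.13 in MN08 and from 2.07 to 0.317 in PENN05. The dogs thus ranged from far higher to lower, and the fitted log2 change of 1.44 (SE 1.01, adjusted p = 0.735) became 0.32 without PENN04.

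ITGAM, the alpha subunit of the CD11b integrin of neutrophils and monocytes (chromosome 6, 16940978 to 16996535), was lowly expressed. Its level went from 0.856 to 14.3 FPKM in PENN04, from 0.529 to 1.82 in MN05, from 0.429 to 1.12 in MN09, from 3.29 to 4.12 in MN08 and from 1.44 to 0.994 in PENN05. The fitted log2 change was 0.89 (SE 0.48, adjusted p = 0.685), and 0.36 without PENN04. In PD04, which had no Day 4 library, the Day 0 levels of CSF3R, SERPINA1, MMP9 and ITGAM were 7.79, 15.4, 7.56 and 3.82 FPKM, between the levels of MN08 and of the other paired dogs except that MMP9 and ITGAM were above those of MN08.

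**Figure D2:**
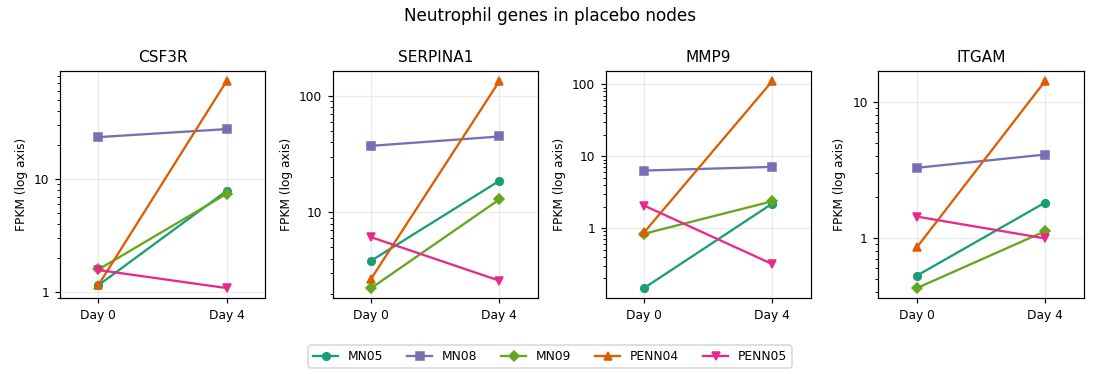
FPKM (log axis) of CSF3R, SERPINA1, MMP9 and ITGAM at Day 0 and Day 4, 1 line for each of the 5 placebo dogs. PENN04 climbs most steeply in all 4 panels, MN05 and MN09 climb less, MN08 is nearly flat and PENN05 declines.

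Macrophage genes divided the dogs in a similar way but over a smaller range. The 3 matched macrophage genes, out of 18 markers, had a summed level that went from 17.2 to 131 FPKM in PENN04, from 15.7 to 36.8 in MN09 and from 89.5 to 111 in MN05. It was lower at Day 4 in MN08, at 97.2 and 75 FPKM, and in PENN05, at 198 and 170 FPKM. The dogs with the lowest Day 0 level therefore had the largest ratios of Day 4 to Day 0, 7.58 in PENN04 and 2.35 in MN09. Of the 3 genes, 0 passed the test and 0 had an unadjusted p under 0.05, and their median change was 0.69.

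C1QB and C1QC, chains of complement C1q that lie side by side on chromosome 2 (76649363 to 76655660 and 76659987 to 76664962), moved in parallel. C1QC went from 9.07 to 64.6 FPKM in PENN04, from 10.2 to 24.7 in MN09, from 55.6 to 66.2 in MN05, from 59.7 to 42.4 in MN08 and from 113 to 99.0 in PENN05. C1QB showed the same sign as C1QC in each of the 5 dogs, with log2 changes of 2.59 in PENN04 and -0.33 in PENN05. The fitted changes were 0.69 (SE 0.49) for C1QC and 0.64 (SE 0.46) for C1QB, and 0.19 and 0.14 without PENN04.

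CD5L, a protein secreted by tissue macrophages (chromosome 7, 40515318 to 40526634), went from 2.83 to 28.8 FPKM in PENN04 and from 5.18 to 13.5 in MN05. It was nearly level in MN08, at 9.28 and 9.31 FPKM, and in PENN05, at 29.9 and 27.4 FPKM, and was 0.836 and 1.49 FPKM in MN09. DNASE1L3, a secreted nuclease made by macrophages and dendritic cells (chromosome 20, 32358183 to 32380045), went from 17.0 to 86.4 FPKM in PENN04 and from 12.9 to 34.5 in MN09. It went from 54.5 to 69.9 FPKM in MN05, and was lower at Day 4 in MN08, from 145 to 98.7, and in PENN05, from 162 to 97.3. IL18, an inflammatory cytokine that macrophages produce (chromosome 5, 20972871 to 20999929), had log2 changes of 2.70 in PENN04, 0.86 in MN09 and 0.43 in MN05, against -0.46 in MN08 and -0.27 in PENN05. Each of the 5 genes of this paragraph and the previous one was thus higher in PENN04, MN05 and MN09, and lower in PENN05. The fitted changes of CD5L, DNASE1L3 and IL18 were 0.90, 0.54 and 0.65, with adjusted p of 0.681, 0.775 and 0.746, and without PENN04 they were 0.39, 0.11 and 0.14. DNASE1L3 was 0.34 without MN09, 0.81 without MN08 and 0.86 without PENN05.

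Matrix genes were higher in PENN04 and differed little or without a common direction in the other dogs. Of 19 fibroblast and matrix markers, CTSK and FN1 could be matched, and neither passed the test (median change 0.76). CTSK, the collagen-degrading protease cathepsin K (chromosome 17, 59929302 to 59936715), went from 24.4 to 198 FPKM in PENN04 and from 20.04 to 35.4 in MN05. It was 42.5 and 61.8 FPKM in PENN05, 15.5 and 17.1 in MN09, and 48.2 and 41.2 in MN08, so that its fitted change of 0.84 (SE 0.47, adjusted p = 0.688) became 0.31 without PENN04. FN1, the matrix protein fibronectin (chromosome 37, 22455906 to 22523117), was below 4 FPKM in every placebo library. It went from 0.0555 to 3.65 FPKM in PENN04, and its log2 changes in MN05, MN08, MN09 and PENN05 were 0.72, 0.65, 0.24 and -0.34. Its fitted change of 0.68 became 0.32 without PENN04.

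PLAU, the urokinase that activates plasminogen (chromosome 4, 24327934 to 24334907), was the 1 matched gene of 8 for wound and clotting. It went from 0.402 to 6.23 FPKM in PENN04, from 3.38 to 10.2 in PENN05 and from 0.903 to 1.88 in MN05. It went from 7.03 to 3.96 FPKM in MN08 and from 1.65 to 1.12 in MN09. Unlike the neutrophil and macrophage genes, PLAU was higher at Day 4 in PENN05, and its fitted change was 0.66 (SE 0.47, adjusted p = 0.742). It was 0.23 without PENN04 and 0.998 without MN08.

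Immediate early genes went in opposite directions in 2 dogs, PENN05 and MN09. The summed level of the 5 matched genes, out of 21, went from 16.9 to 91.6 FPKM in PENN05, where all 5 were higher, and from 141 to 41.1 FPKM in MN09, where all 5 were lower by 1 or more. It was 20.1 and 38.9 FPKM in MN05, 9.29 and 14.2 in PENN04, and 28.2 and 17.1 in MN08. PENN04, in which the neutrophil, macrophage and matrix genes differed most between days, had the lowest summed level of immediate early genes on both days. Of the 5 genes, 0 passed the test and 0 had an unadjusted p under 0.05, and their median fitted change was 0.18. The highest Day 0 sum and the highest Day 4 sum thus came from different dogs, MN09 and PENN05.

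NR4A1, an orphan nuclear receptor (chromosome 27, 2947619 to 2955829), went from 1.47 to 13.1 FPKM in PENN05, an 8.89-fold increase, and from 2.16 to 12.8 in MN05. In MN09 it went from 34.5 to 11.1 FPKM, in MN08 from 4.97 to 2.92 and in PENN04 from 0.574 to 1.28. At Day 4 these 3 dogs, MN05, MN09 and PENN05, lay between 11.1 and 13.1 FPKM, after Day 0 levels that spanned 1.47 to 34.5. Its relative NR4A2 (chromosome 36, 2546244 to 2554509) went from 2.71 to 29.2 FPKM in PENN05 and from 28.4 to 10.1 in MN09, and was 2.43 and 2.28 in PENN04.

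ATF3, a transcription factor of the stress response (chromosome 7, 10782154 to 10796616), went from 0.805 to 10.2 FPKM in PENN05 and from 22.3 to 2.45 in MN09. It was also lower at Day 4 in MN08, at 4.30 and 1.16 FPKM, and differed by less than 0.3 in size on the log2 scale in MN05 and PENN04. EGR3, an early growth response factor (chromosome 25, 34591863 to 34594346), went from 18.5 to 2.57 FPKM in MN09 and was higher at Day 4 in the other 4 dogs, by log2 changes of 0.25 to 1.28. TIPARP, an ADP-ribosyltransferase of the same early response (chromosome 23, 50253666 to 50281139), went from 7.98 to 30.6 FPKM in PENN05, from 37.4 to 14.9 in MN09 and from 3.19 to 6.76 in PENN04. The fitted changes of the 5 genes ran from -0.32 (ATF3, SE 0.75) to 0.60 (NR4A1, SE 0.66). The change of NR4A1 was 0.13 without PENN05, 0.22 without MN05, 0.90 without MN08 and 1.14 without MN09. Those of ATF3, EGR3, NR4A2 and TIPARP changed sign when 1 dog was left out: ATF3 was 0.29 without MN09, EGR3 -0.09 without MN05 and -0.01 without PENN05, and NR4A2 -0.43 and TIPARP -0.23 without PENN05. At the other end ATF3 was -1.06 without PENN05, and EGR3, NR4A2 and TIPARP were 0.84, 0.68 and 0.54 without MN09.

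Of 17 genes of the NF-kB response, CXCL8, TNFAIP3 and ICAM1 could be matched, and 0 of 3 passed the test or had an unadjusted p under 0.05. CXCL8, the chemokine that attracts neutrophils (chromosome 13, 62434792 to 62438932), was 0.660 to 1.84 FPKM at Day 0 in 4 dogs and 111 FPKM in MN08. At Day 4 it was 5.05 FPKM in PENN05, 5.95 in MN05, 7.53 in MN09, 10.5 in PENN04 and 18.4 in MN08, so the 4 low dogs were each higher and MN08 was lower. The highest Day 0 level of CXCL8 was in the dog with the highest Day 0 level of the neutrophil genes, MN08. The fitted change was 1.01 (SE 0.77, adjusted p = 0.753), 1.89 (SE 0.26) when MN08 was left out and 0.57 (SE 0.84) when PENN04 was.

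TNFAIP3, which restrains NF-kB signalling (chromosome 1, 30247095 to 30263167), followed the immediate early genes in PENN05 and MN09. It went from 9.94 to 25.4 FPKM in PENN05 and from 18.1 to 7.24 in MN09, and its fitted change of 0.10 turned to -0.12 without PENN04 and -0.19 without PENN05, and was 0.43 without MN09. ICAM1, the adhesion molecule to which leukocyte integrins bind (chromosome 20, 50818715 to 50827914), went from 7.68 to 32.0 FPKM in PENN04 alone, while its log2 changes in the other 4 dogs were -0.06 to 0.23, and its fitted change of 0.47 was 0.10 without PENN04. CXCR4, the receptor of the homing chemokine CXCL12 (chromosome 19, 38873992 to 38877889), went from 6.75 to 36.7 FPKM in PENN04, which had by far the lowest Day 0 level. It was lower at Day 4 in MN08 (117 and 46.3 FPKM), MN09 (87.9 and 36.9 FPKM) and PENN05 (95.2 and 68.7 FPKM), and 20.4 and 23.6 FPKM in MN05. Its fitted change of -0.11 (SE 0.55) became 0.20 without MN08, 0.17 without MN09 and -0.70 without PENN04.

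**Figure D3:**
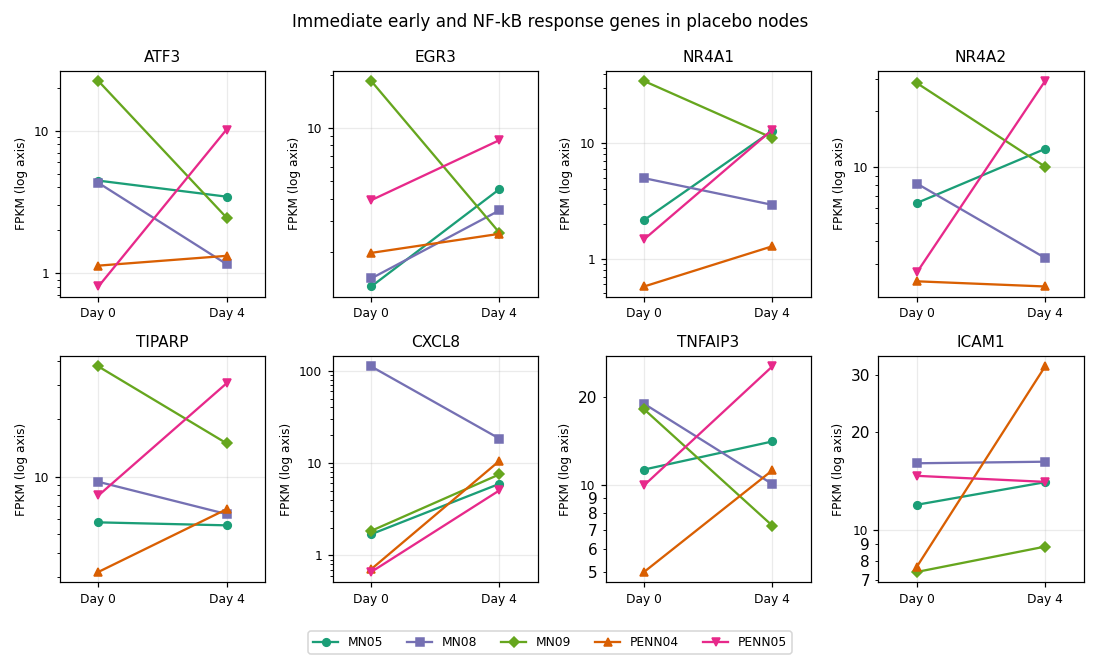
FPKM (log axis) of 5 immediate early genes and 3 NF-kB response genes at Day 0 and Day 4 in the 5 placebo dogs. The lines of PENN05 and MN09 cross in ATF3, EGR3, NR4A1, NR4A2, TIPARP and TNFAIP3, MN08 starts at 111 FPKM in the CXCL8 panel, and only PENN04 departs from a nearly level line in the ICAM1 panel.

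TROAP, a spindle protein of dividing cells (chromosome 27, 5278360 to 5289070), was the only gene with a symbol among the 28 that was higher at Day 4 in 5 of 5 dogs. It went from 8.48 to 20.5 FPKM in MN05, from 8.18 to 12.6 in MN08, from 11.4 to 13.5 in MN09, from 8.14 to 38.0 in PENN04 and from 12.6 to 20.3 in PENN05. Day 0 was narrow in these 5 dogs, at 8.14 to 12.6 FPKM, and of the Day 4 levels only that of MN08 lay within it. PD04 lay below that range at Day 0, at 3.73 FPKM. The fitted change was 0.94 (SE 0.28, adjusted p = 0.681), and 0.65 without PENN04. It was the 1 matched gene of 28 for mitosis, so the other genes of cell division were not examined here.

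EEF1A1, the translation elongation factor (chromosome 3, 60899870 to 60901258), had the largest decrease of the listed genes in any 1 dog on the log2 scale, in MN08. It was 817 FPKM at Day 0 and 3.44 at Day 4 there, a 237-fold difference. MN05 had 234 and 207 FPKM and PENN04 121 and 78.5, whereas MN09 had 2.58 and 3.50 and PENN05 5.23 and 24.7, and PD04 had 3.58 at Day 0. The 10 levels were either at least 78.5 FPKM or at most 24.7 FPKM, and only MN08 went from the one range to the other. The fitted change of -1.19 (SE 1.38) was 0.40 without MN08 and -1.997 without PENN05. This elongation factor is known for many intronless copies in mammalian genomes, the annotated interval spans 1389 bases, and the FPKM of such a locus depends on how reads that map to several places were shared out, so its level is uncertain. The locus ENSCAFG00000018586 (chromosome 4, 67701614 to 67703002), which has no symbol here, spans 1389 bases as well. It went from 128 to 483 FPKM in MN05 and from 94.5 to 595 in PENN05, was nearly level in MN08 and MN09, and was 60.2 and 35.8 in PENN04. Its fitted change of 0.78 was 0.31 without PENN05 and 0.50 without MN05. Whether its sequence resembles EEF1A1 was not tested.

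The most even increases across dogs were at loci without a symbol. ENSCAFG00000028460, on an unplaced scaffold (14136 to 31308), went from 24.2 to 57.3 FPKM in MN05, from 18.5 to 59.1 in MN08, from 61 to 114 in MN09, from 43.2 to 160 in PENN04 and from 94.7 to 325 in PENN05. Its ratio of Day 4 to Day 0 thus lay between 1.87 and 3.71 in every dog, although the days overlapped because the dogs started from different levels. The fitted change was 1.47 (SE 0.16, adjusted p = 0.681). ENSCAFG00000029302, on another unplaced scaffold (41 to 1493), went from 24.4 to 62.3 FPKM in MN05, from 14.7 to 35.8 in MN08, from 10.6 to 16.3 in MN09, from 15.2 to 57.7 in PENN04 and from 23.5 to 55.3 in PENN05. Its fitted change was 1.23 (SE 0.18, adjusted p = 0.681). ENSCAFG00000030746 (chromosome 1, 60586582 to 60598997) had Day 0 levels of 2.17 to 7.40 FPKM and Day 4 levels of 4.35 to 15.0, with log2 changes of 0.70 to 1.81 and a fitted change of 1.10 (SE 0.19, adjusted p = 0.681). Without PENN04 these 3 changes were 1.37, 1.08 and 0.92, so they rested less on that dog than the neutrophil genes did. ENSCAFG00000024514 (chromosome 27, 9781479 to 10247102) was the only listed gene lower in 5 of 5 dogs. It went from 524 to 80.1 FPKM in MN09 and from 142 to 66.5 in MN08, and by log2 changes of -0.05 to -0.52 in the other 3 dogs, and its fitted change of -0.91 was -0.47 without MN09.

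The 10 smallest p among genes higher in 5 of 5 dogs included 3 of the listed loci, and the 10 among genes lower in 5 of 5 included 0. Of these loci, ENSCAFG00000028460 and ENSCAFG00000029302 had been selected on these same libraries. No unlisted gene could have a symbol here, and 4 of them are given by identifier. The fitted changes of the 10 higher genes were 0.35 to 4.73 and those of the 10 lower genes 0.28 to 0.68 in size. ENSCAFG00000027913 was listed at 0 FPKM at Day 0 in MN05, MN08, MN09 and PENN04 and was 58.0, 20.7, 65.6 and 43.3 FPKM there at Day 4, while PENN05 went from 35.4 to 126. PD04 was listed at 0 for it at Day 0. Its fitted change was 4.73 (SE 0.66, adjusted p = 0.681), a value that depends on the pseudocount because of the zeros. ENSCAFG00000030712 was low throughout, at 0 to 1.12 FPKM on Day 0 and 0.867 to 2.96 on Day 4. Of the genes that were lower, ENSCAFG00000011105 was 38.4 to 95.6 FPKM on Day 0 and 28.1 to 63.8 on Day 4, and its log2 changes of -0.62 to -0.29 were alike in all dogs. ENSCAFG00000002603 was 0.445 to 2.87 FPKM on Day 0 and 0.146 to 2.13 on Day 4.

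The 28 genes came from 2 lists in the study, one of 11 genes chosen on the placebo libraries and one of 19 chosen on the valspodar libraries, with 2 genes on both. The first list was selected on these same libraries and is not independent evidence of a direction. In the paired fit, 0 of its 11 genes passed the test, 3 had an unadjusted p under 0.05, and 9 had a change above 0. Of all genes, 6.89% had an unadjusted p under 0.05 and 49.7% had a change above 0. The median change of this list was 0.94 and became 0.65 without PENN04. Of the 17 genes found only on the valspodar list, 0 passed the test in placebo dogs. An unadjusted p under 0.05 was reached by 1 of them (6.89% of all genes), and 15 had a change above 0 (49.7% of all genes). Their median change was 0.60 in placebo dogs and 0.71 in valspodar dogs, beside medians over all genes of 0 and -0.01, but it was 0.17 in placebo dogs when PENN04 was left out. PENN04 had the largest change in size of the 5 dogs for 19 of the 28 genes, where it did so for 37.7% of all genes tested. In that dog 20 of the 28 genes were higher by 1 or more and 0 lower, where 7.72% of all genes were higher and 0.993% lower. In MN08 2 were higher and 6 lower, where 0.762% and 1.28% of all genes were.

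**Figure D4:**
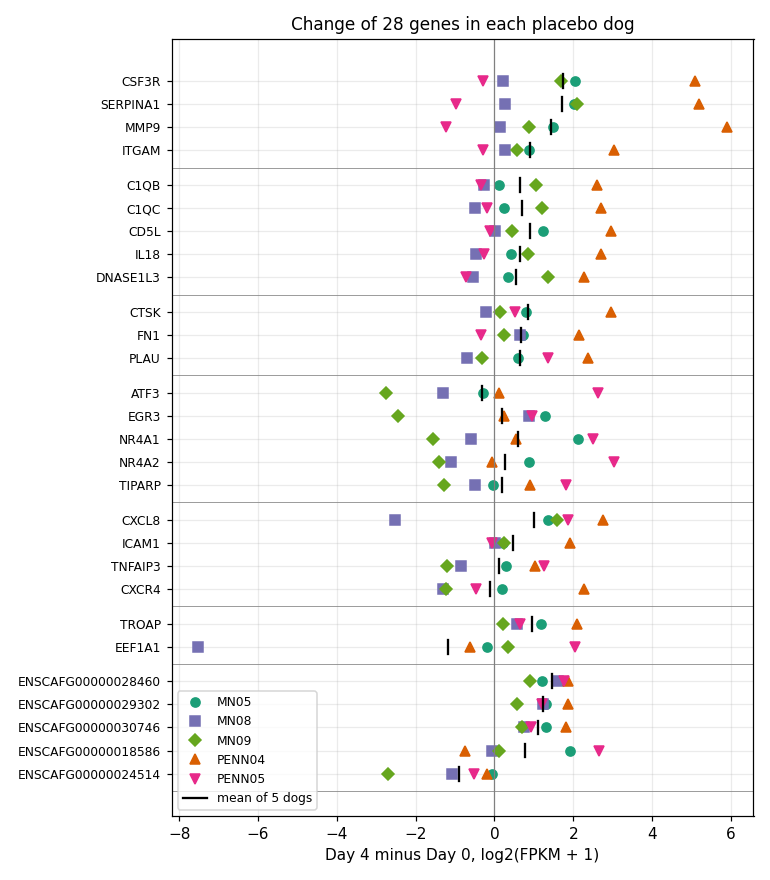
Change in log2(FPKM + 1) from Day 0 to Day 4 of the 28 listed genes, with 1 symbol for each of the 5 placebo dogs and a black bar for their mean, grouped from the top as neutrophil, macrophage, matrix, immediate early, NF-kB and migration, division and translation genes, and loci without a symbol. PENN04 lies farthest right for the neutrophil, macrophage and matrix genes, reaching 5.90 for MMP9, and MN08 lies at -7.52 for EEF1A1.

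The valspodar dogs, biopsied in the same way on the same days, served to test whether a change was particular to the placebo dogs. The difference between the changes of the arms was tested over 14 dogs, and 0 of 11677 genes had an adjusted p under 0.05, while 428 (3.67%) had an unadjusted p under 0.05. Of the 28 listed genes 0 passed, and 1, ENSCAFG00000028460, had an unadjusted p under 0.05. Its change was -0.43 (SE 0.57) in valspodar dogs, where it was higher in 4 of 9, and the difference was 1.90 (95% interval 0.18 to 3.62, adjusted p = 0.999). The valspodar dog MN02 alone had a change of -5.36, while the median of the 9 dogs was -0.13, and the Day 4 library of MN02 had a relative depth of 0.288. Without MN02 the difference was 1.29 (0.65 to 1.92), and the interval held 0 when MN08, PENN04 or PENN05 was left out. ENSCAFG00000027913 differed by 4.56 (1.79 to 7.34, adjusted p = 0.999), and was higher in 4 of 9 valspodar dogs. Its change was -5.85 in MN02, without which the difference was 3.81 (1.69 to 5.93). ENSCAFG00000027913 and 3 further loci had been named for a small p in the placebo dogs, and ENSCAFG00000028460 had been selected on the same libraries, so a difference from the valspodar dogs was favoured beforehand and is given as a description. For the 3 further loci it was 0.92 (-0.19 to 2.02) at ENSCAFG00000030712, -0.29 (-0.71 to 0.12) at ENSCAFG00000011105 and -0.46 (-0.86 to -0.053) at ENSCAFG00000002603, the last with an interval that held 0 without MN05 (-0.88 to 0.020). MN02 likewise moved the difference at 2 listed loci, with changes of 5.90 and 5.74. ENSCAFG00000029302 differed by 0.47 (-1.28 to 2.22), and by 1.11 (0.61 to 1.62) without MN02. It had been selected on the libraries of both arms, so its values are also given as a description. ENSCAFG00000030746 differed by 0.38 (-1.32 to 2.07), and by 1.002 (0.57 to 1.43) without MN02. Without that dog ENSCAFG00000030712 differed by 1.12 (0.071 to 2.16), and all of these had an adjusted p of 1 in the fit without MN02.

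No neutrophil gene passed the test of the difference between the arms. The differences of the 4 genes were 0.71 to 1.42, with a smallest unadjusted p of 0.114. For CSF3R the difference was 1.02 (95% interval -0.59 to 2.64), for MMP9 1.42 (-0.38 to 3.23), for ITGAM 0.75 (-0.20 to 1.69) and for SERPINA1 0.71 (-1.11 to 2.53). Without PENN04 these differences were 0.19, 0.30, 0.21 and -0.16, the last with the opposite sign. Without PENN05 they were 1.54 for CSF3R, 2.08 (0.33 to 3.84) for MMP9, 1.04 (0.083 to 2.0001) for ITGAM and 1.39 for SERPINA1, where the intervals of MMP9 and ITGAM left out 0 before any adjustment. SERPINA1 was 0.42 without the valspodar dog PD03. The 9 valspodar dogs had changes of CSF3R between -1.20 and 2.39, and 6 of them were higher at Day 4, so the 5.09 of PENN04 lay above all of them. It also did so for SERPINA1, MMP9, ITGAM, C1QB, C1QC, CTSK, IL18, DNASE1L3, CXCL8 and TROAP. A valspodar dog exceeded PENN04 for CD5L (3.88 against 2.96), FN1 (5.03 against 2.14) and ICAM1 (2.23 against 1.93). The same held for PLAU (2.66 against 2.37), CXCR4 (2.78 against 2.28) and TNFAIP3 (2.77 against 1.02). The intervals of the 4 neutrophil genes are wide enough to hold both no difference and one of more than 1 on the log2 scale. For the 3 macrophage genes the differences were -0.08 to -0.03, with a smallest unadjusted p of 0.900. They were -0.57 to -0.54 without PENN04 and 0.15 to 0.25 without MN08, so their sign turned on single dogs. For the 5 immediate early genes the differences were -0.85 to -0.28, with a smallest unadjusted p of 0.487. They were -1.58 to -0.75 without PENN05 and -0.24 to 0.26 without MN09, and -0.29 to 0.43 without the valspodar dog PENN03. The changes of NR4A1 ran from -2.11 to 6.55 over the valspodar dogs, a range that held the 2.51 of PENN05 and the -1.55 of MN09. For TROAP, which was higher in 7 of 9 valspodar dogs, the difference was 0.55 (-0.17 to 1.26, adjusted p = 0.999). It was 0.26 without PENN04 and 0.71 (0.11 to 1.31) without the valspodar dog PENN03.

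**Figure D5:**
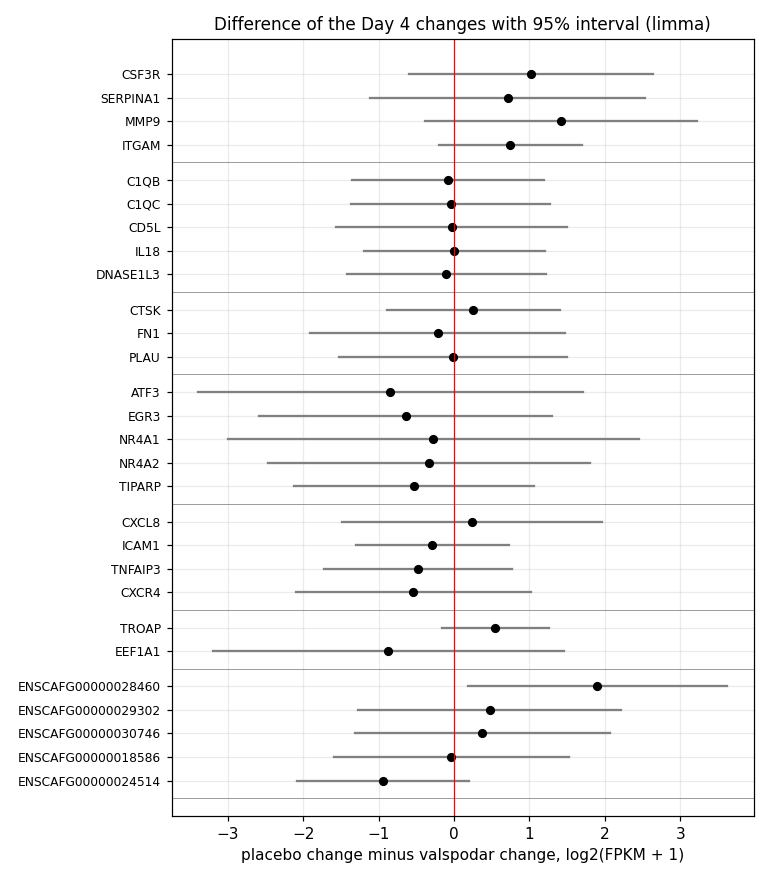
Difference of the Day 4 changes, placebo minus valspodar, in log2(FPKM + 1) for the 28 listed genes over 14 dogs, with points for the fitted difference and grey lines for its 95% interval from limma. The interval leaves out 0 only for ENSCAFG00000028460 (0.18 to 3.62), before any adjustment for the number of genes.

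Several gene groups were higher at Day 4 than at Day 0 in PENN04, whose Day 4 library stood apart as a whole. Its summed FPKM was 1514000, against 889840 to 1056100 in the Day 4 libraries of the other 4 paired placebo dogs, and the median FPKM of the genes tested was 14.3, within their range of 13.7 to 14.6. Its 4 of 4 matched neutrophil genes, 3 of 3 macrophage genes, 2 of 2 matrix genes and 3 of 3 NF-kB genes were higher by 1 or more, while 0 of 5 immediate early genes were and 7.72% of all genes were. These members had all been selected by the study. The changes do not make PENN04 the highest dog at Day 4 in each group, since its macrophage sum of 131 FPKM lay below the 170 of PENN05 and its CXCL8 and TNFAIP3 below those of other dogs. The part of a few abundant transcripts, of the biopsy or of other cells in these values was not tested.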

How the data were processed

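RNA of lymph node biopsies was sequenced from paired ends. The authors trimmed reads with Trimmomatic 0.33, mapped them to canFam3 with HISAT2 2.0.2, quantified each library with Cuffquant (Cufflinks 2.2.1, with its correction for multiply mapped reads) and deposited FPKM values made with Cuffnorm by its classic method, without pooling libraries. The annotation release is not given in the sources used here. The authors' own tests used Cuffdiff without a stated pairing, with PD04 included. The genes on their 2 lists come from those tests, but no fold change or p-value of theirs was used.

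The deposited table held 24580 genes, 5823 of them at 0 in every library. The fit took the 11677 genes whose mean over the 29 libraries reached 1 FPKM. It was run on log2(FPKM + 1) in R 4.3.3 using limma 3.58.1 (lmFit, trended eBayes), with the dog as a block, Benjamini-Hochberg adjustment and a threshold of 0.05. A fold change on this scale understates that of low genes. The block was used because both libraries of a dog come from the same animal. Their deviations from the group means correlated by 0.267 to 0.617 in placebo dogs. The difference between arms was fitted over all paired dogs in the same way. Fits were tested on simulated data. Relative depth came from 2101 genes with low values, of which a median of 24.1% lay near the peak of the ratios between libraries, so it is approximate. FPKM gives no counts, so no count test or counting interval is given, and precision rests on the number of dogs. Other values came from Python 3.11.15.

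Named were every gene of the 2 lists in the study, the 10 smallest p in each direction with the same sign in 5 of 5 dogs (without a symbol, 2 at most), and up to 4 members of each other list. Symbols came from the study's supplementary tables, since the reference table matched 0 identifiers. Of 26 lists of cell type markers and pathways, 7 had a matched member and 19 had none. Members, lists and tests were chosen with earlier results of these data known. Alternatives were quantile or median-ratio scaling, a pseudocount of 0.1, other filters (none, or a mean of 5 FPKM), robust eBayes, no block, PD04 included, a joint fit of all paired dogs, and the omission of each dog (for valspodar dogs, chosen after seeing the data). Starts are 1-based.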

Additional observations from a re-analysis of the deposited data

Results flagged for a closer look

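Among 35 sets of 5 values (changes of the listed genes and properties of the libraries), 5 held a sample whose gap to its nearest neighbour exceeded 0.71 of the range, Dixon's critical value for 5 samples. About 1.75 would do so if the sets were independent and unselected. They share the same 5 dogs, and the genes had been selected by the study, so the count cannot be read as an excess over chance. EEF1A1 had a gap of 0.722, from MN08 at -7.52 on the log2 scale against -0.61 to 2.05 in the other dogs. CXCL8 had 0.737, from MN08 at -2.53 against 1.37 to 2.76. ICAM1 had 0.854, from PENN04 at 1.93 against -0.06 to 0.23. EGR3 had 0.723, from MN09 at -2.45 against 0.25 to 1.28. The summed FPKM of the Day 4 libraries had 0.734, from PENN04 at 1514000 against 889840 to 1056100. MN08 and PENN04 each account for 2 of these sets and MN09 for 1, and the causes were not tested.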

How the results depend on the processing

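The count of genes past an adjusted p of 0.05 was 0 for the placebo change, for the difference between arms and for both study lists under every alternative run. The 805 genes at an unadjusted p under 0.05 became 1243 with no filter on low genes, 269 with no replicate block, 283 with no replicate block and quantile normalization (chosen after seeing the data), and 430 with no replicate block and PD04 included. The joint fit of all paired dogs gave 1045. Leaving out each dog in turn gave 385 (without MN05) to 1189 (without PENN05). For the difference between arms, 428 became 697 with no filter and 43 with no replicate block. Omitting each valspodar dog, chosen after seeing the data, gave 353 to 514. Omitting the 97 genes at 1 value in every placebo library, also chosen after seeing the data, left 756. With a pseudocount of 0.1 the SD of the log2 changes was 0.78 in MN05, 0.79 in MN08, 0.74 in MN09, 1.14 in PENN04 and 0.96 in PENN05, since low genes weigh more. Quantile normalization shifted the median change by -0.02.

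Single genes changed sign only when a dog was left out. Over these omissions EGR3 ran from -0.092 (without MN05; -0.012 without PENN05) to 0.84, EEF1A1 from -1.997 to 0.40 (without MN08), CXCR4 from -0.70 to 0.20 (without MN08; 0.17 without MN09) and ATF3 from -1.06 to 0.29 (without MN09). TNFAIP3 ran from -0.19 (without PENN05; -0.12 without PENN04) to 0.43, NR4A2 from -0.43 (without PENN05) to 0.68 and TIPARP from -0.23 (without PENN05) to 0.54. The difference between arms of SERPINA1 ran from -0.16 (without PENN04) to 1.39. That of EEF1A1 was -0.88 in the main fit and 0.71 without MN08. For CTSK it was 0.26 and for CXCL8 0.24, and without PENN04 these were -0.28 and -0.20. Differences that changed sign with 1 dog left out also included those of FN1, PLAU, NR4A1, NR4A2 and ENSCAFG00000018586. The block changed no call. With 5 dogs and no read counts, a change carried by 1 or 2 dogs cannot be tested apart from the spread between dogs.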
